A study of Mus musculus with 4 samples.

Results

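The interferon regulatory factors are transcription factors that share a DNA-binding domain, and 8 of their genes, Irf1, Irf2, Irf3, Irf4, Irf5, Irf7, Irf8 and Irf9, were followed in the epidermis of newborn mice. They were taken by gene name from tables that list 54752 gene identifiers, and each name matched 1 identifier. The 8 genes were selected on FPKM, namely the known difference of Irf7 between the genotypes in these libraries, so their differences are given as a description without a test.

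The tables hold RNA from the epidermis of 4 pups of C57BL/6 background on postnatal day 0. Both Skiv2l fl/fl K14-Cre pups, called knockouts here, carry a loxP-flanked Skiv2l gene on each chromosome and a Cre recombinase under the keratin 14 promoter, which is active in keratinocytes and removes Skiv2l there, leaving it intact in other cell types of the tissue. Skiv2l encodes the RNA helicase that feeds RNA to the cytoplasmic exosome. The submitters' design text describes the 2 Skiv2l ctl pups as littermate controls. The study's control group mixes 3 kinds of animal, those with floxed alleles only (Skiv2l fl/fl or Skiv2l fl/+) and those with 1 floxed allele and the Cre (Skiv2l fl/+ K14-Cre), so a control may carry the Cre or a single deleted allele, and which genotype each control pup had is not given.

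In the cell, Irf3, Irf7 and Irf5 wait in the cytoplasm until sensors of foreign or misplaced nucleic acid switch on kinases that phosphorylate them, and they then enter the nucleus and turn on interferon genes. Secreted interferon binds receptors that activate JAK kinases and STAT proteins, and Irf9 joins STAT proteins in the complex that turns on interferon-stimulated genes, Irf7 among them. Irf1 activates and Irf2 represses many of the same targets, and Irf4 and Irf8 work mainly in blood cells.

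The promoters of Irf7, Irf1 and Irf8 are shown because Irf7 differed most, Irf1 was the family member higher in both knockouts, and Irf1 and Irf8 carry matches to the element that STAT dimers bind. Each is read 5′ to 3′ along the gene from the RefSeq sequence of build GRCm38.p6, and it covers the part of the 250 bases before the first RefSeq start that lies outside annotated exons. Capitals mark matches to TTCNNNGAA, the core of the gamma-interferon activated site, and to TATAAA, the TATA box. The Irf7 stretch lies at chr7:141266482-141266674 on the minus strand, the Irf1 stretch at chr11:53769764-53770013 on the plus strand and the Irf8 stretch at chr8:120736108-120736357 on the plus strand.
Irf7: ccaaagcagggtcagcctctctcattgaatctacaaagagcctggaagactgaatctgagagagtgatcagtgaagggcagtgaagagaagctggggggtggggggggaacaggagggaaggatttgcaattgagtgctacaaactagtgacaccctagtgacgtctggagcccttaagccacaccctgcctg
Irf1: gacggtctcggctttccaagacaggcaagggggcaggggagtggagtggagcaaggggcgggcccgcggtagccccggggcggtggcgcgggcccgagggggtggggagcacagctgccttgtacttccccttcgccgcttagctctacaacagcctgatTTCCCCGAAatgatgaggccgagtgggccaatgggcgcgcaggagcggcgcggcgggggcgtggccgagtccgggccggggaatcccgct
Irf8: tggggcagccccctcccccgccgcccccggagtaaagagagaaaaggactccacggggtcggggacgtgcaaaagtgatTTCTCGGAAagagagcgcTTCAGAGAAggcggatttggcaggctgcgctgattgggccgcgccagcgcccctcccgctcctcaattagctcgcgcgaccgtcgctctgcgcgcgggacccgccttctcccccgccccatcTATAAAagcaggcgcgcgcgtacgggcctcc

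The same 250-base windows were searched on both strands for 6 motifs, and the share of all 32851 promoter windows of the RefSeq table with a match is given for each. AANNGAAA, the core that interferon regulatory factors recognise, occurred in 21.3% of all windows. The core of the interferon-stimulated response element (GAAA, any 2 bases, GAAA), which always contains the former, occurred in 2.98%. TTCNNNGAA occurred in 7.02%, the NF-kB element (GGG, any 2 bases, TTTCC) in 1.41%, the GC box GGGCGG in 32.7% and TATAAA in 12.4%. The Irf7 window held only the TATA box, 29 to 24 bases before the start, in a stretch annotated as exon and therefore not printed. Irf1 held 1 TTCNNNGAA match, 90 to 82 bases before its first start, and Irf8 held 2, at 171 to 163 and 153 to 145 bases. Irf2 was the family member with the interferon-stimulated response element core, 241 to 232 bases before its start, and it also held TTCNNNGAA and the NF-kB element. The windows of Irf3, Irf5 and Irf9 held GC boxes and no other match, and that of Irf4 held GC boxes and a TATA box.

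Levels are given as FPKM, which scales fragments by the size of the library and of the transcript, so that levels can be compared between genes. Differences are Skiv2l fl/fl K14-Cre minus Skiv2l ctl on log2(FPKM + 1), a scale that makes changes at low FPKM look smaller than they are. Protein-coding genes that exceeded an FPKM of 0.5 in any library, 13609 in all, were tested with limma, and a gene was called at an adjusted p under 0.05. The ratio of coverage to FPKM, which under the usual definition of these units is the number of aligned gigabases, was 5.84 to 6.27, and read counts were not used here. Skiv2l had FPKM of 19.3 and 19.1 in the controls against 10.8 and 8.55 in the knockouts. The median log2 difference of all tested genes was -0.20, and it was -0.05 after the medians of the libraries were set equal, so differences near -0.20 lie in the middle of all genes. Of the called genes 26.1% were higher in the knockouts, against 50.6% after median scaling.

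Irf7, the interferon-inducible factor that amplifies interferon-alpha production, stood apart from the rest of the family. The Skiv2l ctl pups had FPKM of 25.8 and 26.9, but the Skiv2l fl/fl K14-Cre pups had 2.83 and 1.65. Both knockouts lay far below both controls, and the gap was many times the spread within either group. The group means were 26.3 ± 0.820 (SD, n = 2) and 2.24 ± 0.833 (SD, n = 2), an 11.7-fold lower level in the knockouts. The log2 difference was -3.10 (standard error 0.18), the fourth lowest of all 13609 tested genes (rank 4 from the lowest). In bulk tissue, fewer cells of a type and less RNA per cell cannot be told apart. Irf7 (ENSMUSG00000025498.15) lies on the minus strand of chromosome 7 from 141262706 to 141266481, and 45 of its 3776 exonic bases overlap Phrf1 on the other strand. Phrf1 itself had FPKM of 21.5 and 17.7 in the controls against 19.2 and 18.5 in the knockouts, a log2 difference of -0.05 (limma adjusted p = 0.767).

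**Figure D1:**
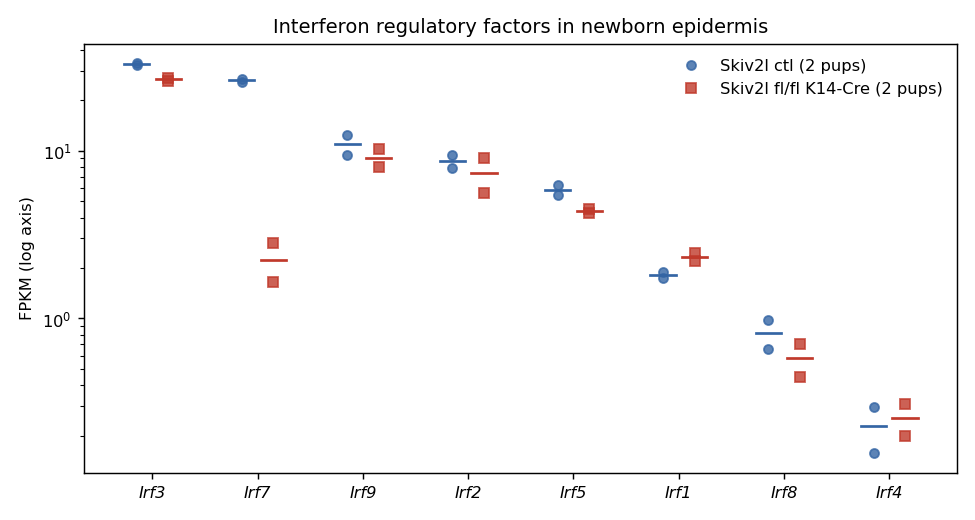
FPKM on a log axis of the 8 interferon regulatory factors, in order of the control mean, with 1 point per pup (circles, Skiv2l ctl; squares, Skiv2l fl/fl K14-Cre; 2 pups each) and a line at each group mean. The Irf7 points of the knockouts, 2.83 and 1.65, lie far below those of the controls, 25.8 and 26.9, whereas the groups of most other genes lie close together or overlap.

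The size of the Irf7 difference, which is the value the genes were selected on, varied with the scaling. Its log2 difference was -2.95 with median scaling, -2.94 with quantile normalization, -3.44 with TPM and -2.78 with the deposited coverage divided by the depth. On that coverage scale Irf7 stood at 14.4 and 14.8 in the controls against 1.66 and 0.926 in the knockouts. Without the first knockout library the log2 difference was -3.36, and without the second it was -2.83. Over the settings run, it ranged from -3.54 with a pseudocount of 0.1 to -2.78.

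**Figure D2:**
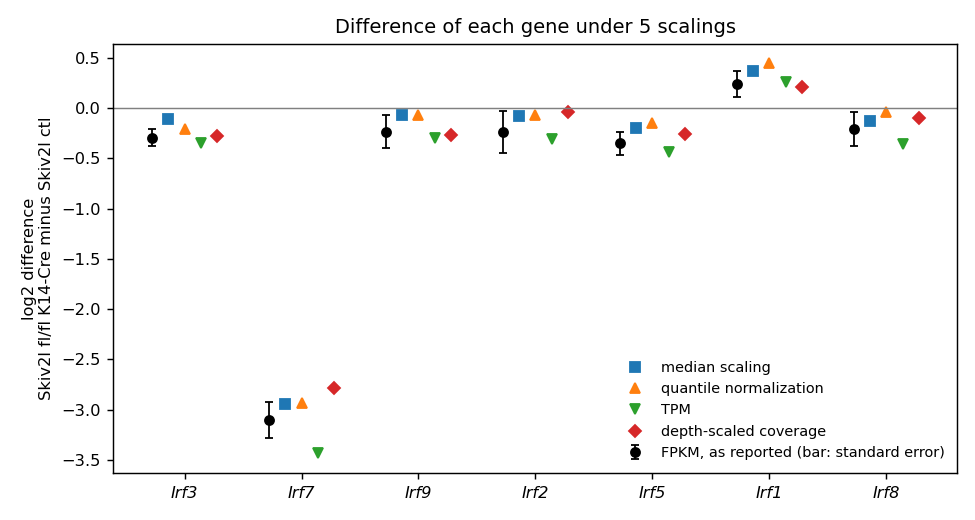
Log2 difference (Skiv2l fl/fl K14-Cre minus Skiv2l ctl) of the 7 tested interferon regulatory factors under 5 scalings, with the standard error as a bar on the FPKM value. Irf7 lies between -3.44 and -2.78 in all 5, Irf1 lies above 0 in all 5, and the other genes lie between -0.44 and 0.

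Irf3 and Irf5, which like Irf7 wait in the cytoplasm until kinases phosphorylate them, differed far less. Irf3 is made in most cells without induction and triggers the first wave of interferon-beta. Its FPKM was 33.2 and 32.7 in the controls against 26.1 and 27.3 in the knockouts. Both knockouts were below both controls, 1.23-fold lower in the mean, with a log2 difference of -0.29 (standard error 0.08) that was -0.11 after median scaling and -0.21 after quantile normalization. Irf5, which acts downstream of Toll-like receptors and Myd88, had FPKM of 5.42 and 6.27 in the controls against 4.48 and 4.24 in the knockouts. The groups did not overlap, and the log2 difference was -0.35 (standard error 0.12), or -0.19 after median scaling, -0.14 after quantile normalization and -0.44 with TPM, where it was called lower. Exons of Irf5 share 14.2% of their bases with Tnpo3 on the other strand, and exons of Irf3 share 2.56% with Bcl2l12, and whether strand was used in counting is not given in the sources used here. Irf3 (ENSMUSG00000003184.15) lies on chromosome 7 from 44997648 to 45002848, and Irf5 (ENSMUSG00000029771.12) on chromosome 6 from 29526625 to 29541871, both on the plus strand.

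Irf1 was the family member with higher values in both knockouts. It is an activator induced by interferon-gamma and by NF-kB. Its FPKM was 1.75 and 1.90 in the controls against 2.20 and 2.47 in the knockouts. The groups did not overlap, but the step of 1.28-fold was small, with a log2 difference of 0.24 (standard error 0.13) that was 0.37 after median scaling and 0.45 after quantile normalization. Irf1 (ENSMUSG00000018899.16) lies on the plus strand of chromosome 11 from 53770014 to 53778374, and 3.40% of its exonic bases overlap the antisense gene Gm17334.

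Irf2, which competes with Irf1 for the same sites, had FPKM of 7.92 and 9.41 in the controls against 5.60 and 9.08 in the knockouts. The groups overlapped, the second knockout lying between the controls. The log2 difference was -0.24 (standard error 0.21), and a single library decided it, since it was 0.07 without the first knockout library and -0.55 without the second, where it was called. The coverage of Irf2 divided by the depth was only 0.2997 and 0.2996 in the controls against 0.196 and 0.334 in the knockouts, so its place in the order of levels depends on the measure. Irf2 (ENSMUSG00000031627.9) lies on the plus strand of chromosome 8 from 46739732 to 46847458.

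Irf9, the DNA-binding subunit that joins STAT proteins, had FPKM of 9.42 and 12.4 in the controls against 8.001 and 10.2 in the knockouts. These groups overlapped too, and the log2 difference was -0.23 (standard error 0.17), or -0.06 after median scaling. Irf9 (ENSMUSG00000002325.15) lies on the plus strand of chromosome 14 from 55603571 to 55610030, and 2.28% of its exonic bases overlap Rnf31.

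Irf8 and Irf4, the factors of myeloid and lymphoid cells, stood at the bottom of the family. Irf8 (ENSMUSG00000041515.10, plus strand of chromosome 8, 120736358 to 120756694) had FPKM of 0.658 and 0.980 in the controls against 0.708 and 0.447 in the knockouts. Irf4 (ENSMUSG00000021356.10, plus strand of chromosome 13, 30749226 to 30766976) had FPKM of 0.157 and 0.297 in the controls against 0.1997 and 0.310 in the knockouts, below the filter in every library, and was not tested. The groups overlapped for both genes. The log2 difference of Irf8 was -0.20 (standard error 0.17), close to the median of all tested genes.

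Counted over the family, 7 of the 8 genes passed the filter, none was called higher and 2, Irf7 and Irf3, were called lower. Over all tested genes 8.99% were called higher and 25.4% lower. Irf1 lay above both controls in both knockouts, Irf3, Irf5 and Irf7 lay below in both, and the other 3 tested members overlapped. Over all tested genes 18.2% lay above and 55.3% below without overlap. Because the 8 genes were chosen with this contrast known, nothing is read from these counts. The call of Irf3 was lost with median scaling, quantile normalization, no filter, no trend in the variance and the replicate block, and also without either Skiv2l ctl library or without the first knockout library, where its log2 differences were -0.28, -0.30 and -0.26. The median log2 difference of the 7 tested members was -0.24, against -0.20 over all tested genes.

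**Figure D3:**
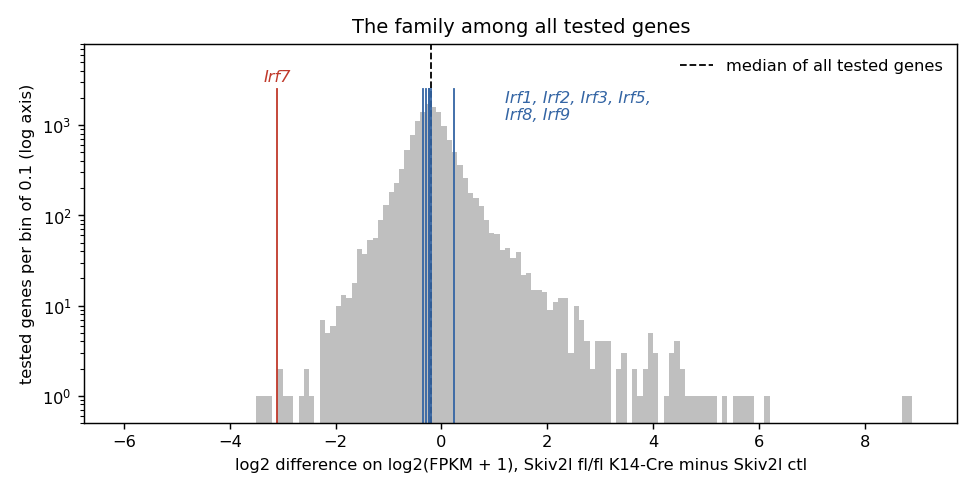
Histogram of the log2 difference (Skiv2l fl/fl K14-Cre minus Skiv2l ctl) of the 13609 tested genes in bins of 0.1, with the number of genes on a log axis, a dashed line at their median of -0.20 and a vertical line for each tested family member. Irf7 lies at -3.10 in the far left tail, and the other lines lie between -0.35 and 0.24.

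With Irf7 low, the makeup of the family differed between the genotypes. Irf7 made up 30.6% and 29.6% of the summed FPKM of the 8 genes in the controls, against 5.65% and 2.97% in the knockouts. The summed FPKM was 84.3 and 90.9 in the controls against 50.1 and 55.8 in the knockouts, while the share of Irf3 was 39.4% and 36.0% against 52.1% and 49.0%. In the controls the order by mean FPKM was Irf3, Irf7, Irf9, Irf2, Irf5, Irf1, Irf8 and Irf4, and no neighbours in this order overlapped, although the lower Irf9 value, 9.419, nearly met the higher Irf2 value, 9.406. In the knockouts Irf7 stood between Irf1 and Irf8, its values overlapping those of Irf1, and those of Irf9 and Irf2 overlapped as well. By coverage divided by the depth, Irf7 stood slightly above Irf3 in the controls, at 14.4 and 14.8 against 14.03 and 13.7, so the order of these neighbours depends on the measure.

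The 5 tested genes whose values over the 4 libraries lay closest to those of Irf7, by Euclidean distance between log2(FPKM + 1) profiles after subtraction of the control mean, were Dapl1, Wfdc21, Krt77, Krt12 and Cyp2f2. The distance was 0.353 for Dapl1, whose FPKM was 53.1 and 53.2 in the controls against 6.20 and 5.66 in the knockouts. For Wfdc21 it was 0.477, and for the keratins Krt77 and Krt12 it was 0.516 and 0.636. For Cyp2f2, a cytochrome P450 gene, it was 0.672. These distances rest on 4 libraries and describe the values only.

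The kinases and adaptors that switch on Irf3, Irf5 and Irf7 moved in both directions. Of 15 genes, all tested, Tirap and Myd88 were called higher and Ikbke and Irak1 lower, 13.3% in each direction against 8.99% higher and 25.4% lower over all tested genes. The median log2 difference was -0.07 against -0.20 over all genes. The median turned to 0.10 with median scaling and to 0.10 with quantile normalization. Ikbke, which encodes a kinase that phosphorylates Irf3 and Irf7, fell from FPKM of 12.2 and 11.4 to 4.80 and 5.31, with a log2 difference of -1.08 (standard error 0.11, limma adjusted p = 0.00126). Both knockouts were below both controls, and the call held in every setting run. Tbk1, the related kinase, singled out after its values were seen, was not called.

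Tirap, an adaptor that brings Myd88 to Toll-like receptors, rose from FPKM of 0.621 and 0.927 to 2.86 and 2.32, with a log2 difference of 1.02 (standard error 0.16, limma adjusted p = 0.00577). Of its exonic bases, 9.84% overlap other genes on the opposite strand. Myd88, the adaptor through which Toll-like receptors reach Irf5 and Irf7, rose from 17.4 and 17.1 to 22.7 and 22.0, a log2 difference of 0.35 (standard error 0.08, limma adjusted p = 0.0234). Of its exonic bases, 11.3% overlap Acaa1a on the opposite strand. Irak1, a kinase of the same route, fell from 17.6 and 18.3 to 13.5 and 12.3, a log2 difference of -0.45 (standard error 0.09, limma adjusted p = 0.0155). The groups of all 3 genes lay apart. The call of Irak1 was lost with median scaling, where its log2 difference was -0.28, and with quantile normalization. With no filter the calls of Irak1 and Tirap were lost. Without the first Skiv2l ctl library the counts of the list were 0 higher and 1 lower, and without the second 1 higher and 1 lower.

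Of 11 interferon receptor and JAK-STAT genes, all tested, Ifngr1 and Jak2 were called higher and Ifnlr1 and Ifnar1 lower, 18.2% in each direction against 8.99% and 25.4% over all tested genes. The median log2 difference was -0.03 and turned to 0.15 with median scaling, to 0.08 with quantile normalization and to 0.04 without the second Skiv2l ctl library. Ifngr1, the ligand-binding chain of the interferon-gamma receptor, rose from FPKM of 12.0 and 12.1 to 25.9 and 25.3, a log2 difference of 1.03 (standard error 0.09, limma adjusted p = 0.000778). Jak2, the kinase that serves this receptor, rose from 6.96 and 7.57 to 11.8 and 11.7, a log2 difference of 0.63 (standard error 0.10, limma adjusted p = 0.00602). The knockouts lay above the controls for both genes.

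Ifnlr1, the specific chain of the interferon-lambda receptor, fell from FPKM of 4.75 and 6.18 to 3.34 and 3.79, a log2 difference of -0.50 (standard error 0.15, limma adjusted p = 0.0444). Ifnar1, a chain of the interferon-alpha and interferon-beta receptor, fell from 12.5 and 12.9 to 10.04 and 10.07, a log2 difference of -0.31 (standard error 0.09, limma adjusted p = 0.0442). The groups lay apart for both genes, but both calls were near the threshold and were lost with median scaling, quantile normalization, no filter and without any 1 of the 4 libraries, where the count of receptor genes called lower was 0. The count called higher was 1 without either Skiv2l ctl library, where Jak2 lost its call.

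Interferon genes themselves were listed at or near 0. Of 21 interferon ligand genes, 15, Ifnb1 among them, were listed at an FPKM of 0 in all 4 libraries, and 3 exceeded 0.1 in any library. Ifnk, the interferon of keratinocytes, was the 1 above 0.5, with FPKM of 0.666 and 0.925 in the controls against 0.470 and 0.30015 in the knockouts. Its knockouts lay below its controls, and the log2 difference of -0.37 was not called (limma adjusted p = 0.116). Ifnz stood at 0.0391 and 0.0844 in the controls against 0.117 and 0.113 in the knockouts, and Ifne was listed above 0 in 1 library, a knockout, at 0.101.

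Cofactors and antagonists of the family were also called in both directions. Of 21 genes, 18 were tested, Socs3 and Nlrc5 were called higher and Spi1, Ikzf3, Tcf3 and Rbck1 lower. These shares of 11.1% higher and 22.2% lower lay near the 8.99% and 25.4% of all tested genes, as did the median log2 difference of -0.23 against -0.20. The partners Batf, Batf2 and Batf3 were below the filter. Spi1, which encodes PU.1, the partner of Irf4 and Irf8 on DNA in myeloid and B cells, fell from FPKM of 3.34 and 2.88 to 1.91 and 0.938, a log2 difference of -0.79 (standard error 0.21, limma adjusted p = 0.0332). Ikzf3, a lymphoid zinc-finger factor, fell from 1.24 and 1.32 to 0.382 and 0.323, a log2 difference of -0.75 (standard error 0.14, limma adjusted p = 0.0103). Both genes are known from blood cells, and the knockouts lay below the controls for both. The call of Spi1 was lost with median scaling, quantile normalization and no filter. It was also lost without either Skiv2l ctl library and without the second knockout library, where the log2 differences of Spi1 were -0.71, -0.87 and -0.50.

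Tcf3, which encodes the E proteins E12 and E47 that act with Irf4 in lymphocytes and is also expressed in epithelia, fell from FPKM of 55.7 and 56.9 to 35.8 and 32.2, a log2 difference of -0.71 (standard error 0.09, limma adjusted p = 0.00284). Socs3, an inhibitor of JAK kinases, rose from 14.5 and 11.0 to 24.0 and 16.8, a log2 difference of 0.63 (standard error 0.19, limma adjusted p = 0.0494) and lost its call with TPM, coverage, no trend and no filter. Nlrc5, an activator of class I antigen presentation genes, rose from 1.90 and 2.12 to 4.43 and 2.93, a log2 difference of 0.62 (standard error 0.18, limma adjusted p = 0.0420). The groups lay apart for the 3 genes, and the call of Tcf3 held in every setting run. The count called higher was 0 without either Skiv2l ctl library or without the first knockout library, and the count called lower was 2 without the first Skiv2l ctl library and 1 without the second.

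Target genes of the family were called in both directions. Of 41 genes, 35 were tested, 2 were called higher and 10 lower. These shares were 5.71% and 28.6%, against 8.99% and 25.4% over all tested genes, and the median log2 difference was -0.27 against -0.20. Trex1 and Samhd1 were called higher, and Ifi27l2a, B2m, Ifi27, Dhx58, Ddx58, Tapbp, Ifit3, Sp100, Oas1a and Dtx3l lower. Ifit1, Rsad2, Oasl1, Ifi44 and Gbp3 were below the filter. Mx2 had FPKM of 0.510 and 0.547 in the controls against 0.416 and 0.364 in the knockouts. It exceeded the filter but was not among the protein-coding genes, so it was not tested. The count called lower was 5 after median scaling, 4 after quantile normalization and 6 with the replicate block, and it was 5 without the first Skiv2l ctl library, 0 without the second and 3 without the second knockout library.

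Ifi27l2a, an interferon-induced gene of small hydrophobic proteins, fell from FPKM of 2.67 and 3.39 to 0.847 and 0.335, a log2 difference of -1.35 (standard error 0.20, limma adjusted p = 0.00470). B2m, the light chain of class I molecules, fell from 27.6 and 39.4 to 17.6 and 16.3, a log2 difference of -0.92 (standard error 0.17, limma adjusted p = 0.00987). Ifi27, of the same family as Ifi27l2a, fell from 6.77 and 9.62 to 4.44 and 3.69, a log2 difference of -0.85 (standard error 0.18, limma adjusted p = 0.0150). In each of these genes both knockouts lay below both controls. Each call was lost with no filter, and also without the second Skiv2l ctl library. The call of Ifi27 was also lost without the second knockout library.

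The 2 targets called higher encode enzymes that break down nucleic acid or its building blocks. Samhd1, a dNTP hydrolase, rose from FPKM of 13.5 and 12.6 to 37.9 and 32.3, a log2 difference of 1.36 (standard error 0.11, limma adjusted p = 0.000672). Trex1, a cytoplasmic DNA exonuclease, rose from 0.324 and 0.360 to 3.92 and 4.34, 12.1-fold in FPKM, with a log2 difference of 1.93 (standard error 0.13, limma adjusted p = 0.000389). The groups lay far apart for both, and both calls held in every setting run. All exonic bases of Trex1 are also annotated as exons of Atrip on the same strand, so how reads are divided between these genes is uncertain, and Atrip itself had a log2 difference of 0.07 (limma adjusted p = 0.716).

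**Figure D4:**
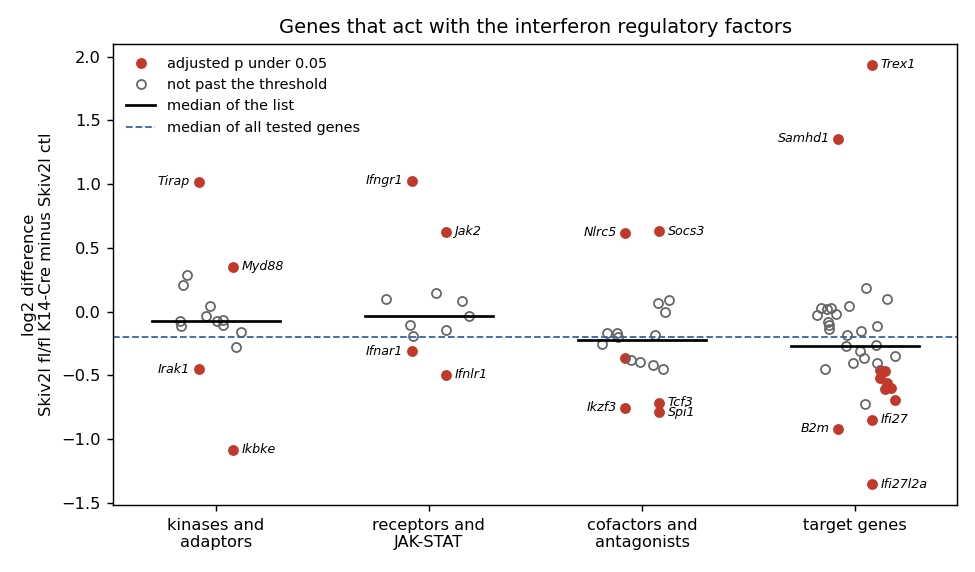
Log2 difference (Skiv2l fl/fl K14-Cre minus Skiv2l ctl) of the tested genes of the 4 lists, 1 point per gene with arbitrary horizontal spread, filled where the limma adjusted p is under 0.05, with a black line at the median of each list and a dashed line at the median of all tested genes, -0.20. Trex1 at 1.93 and Samhd1 at 1.36 are the highest points, and Ifi27l2a at -1.35 and Ikbke at -1.08 are the lowest.

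Summed markers of cell types differed between the genotypes for some lists and overlapped for the keratinocyte, melanocyte and endothelial lists. The summed FPKM of 6 keratinocyte markers was 25841 and 27389 in the controls against 23983 and 27336 in the knockouts, and all 6 were detected in every library. The sum hides members that moved apart, since Krt14 and Dsg3 were called higher and Krt1 lower. The summed FPKM of 15 leukocyte and Langerhans cell markers was 75.2 and 91.1 in the controls against 47.0 and 39.8 in the knockouts. Of the 14 tested markers, 13 were below both controls in both knockouts, where 55.3% of all tested genes lay below without overlap. Of the 14, 8 (57.1%) were called lower, against 25.4% of all tested genes. The antigen presentation gene Cd74 had FPKM of 13.1 and 16.4 in the controls against 4.61 and 4.39 in the knockouts. The Langerhans cell marker Cd207 was near 0 and below the filter in every library, and was not tested. It had 0.0401 and 0.0417 in the controls and was listed at 0 in both knockouts.

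Most of these leukocyte markers moved in the same direction as Irf7, Irf5, Spi1, Ikzf3 and B2m, genes singled out after their values were seen. Irf1, Tirap, Myd88, Ifngr1, Jak2, Socs3, Nlrc5, Samhd1 and Trex1 moved the other way. Over all tested genes 55.3% lay below without overlap. Irf8 and Irf4, the factors of myeloid and lymphoid cells, overlapped between the genotypes. The part of leukocytes in the differences of any of these genes was not tested. The summed FPKM of 9 T cell and B cell markers was 4.29 and 4.95 in the controls against 3.38 and 2.996 in the knockouts, with none of the 4 tested called. That of 6 fibroblast markers was 61.3 and 69.0 against 21.9 and 25.0, of which Dcn alone made up 57.0 and 62.7 against 16.9 and 21.4. Dcn and Col1a2 were called lower, and none of the list was called higher, although both knockouts lay above both controls for Pdgfra. The neutrophil list stood at 0.701 and 1.38 against 7.54 and 6.34, of which 6.51 and 5.56 in the knockouts came from Cxcr2, and Elane was listed at 0 in all libraries. Melanocyte markers summed to 65.3 and 72.4 against 67.8 and 82.2, and endothelial markers to 0.701 and 0.495 against 0.7502 and 0.508. The part of these cell types in the values of the family was not tested.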

How the data were processed

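Total RNA from the epidermis of 4 pups, 2 Skiv2l ctl and 2 Skiv2l fl/fl K14-Cre, was sequenced by a commercial provider after a check of RNA integrity, and the authors processed the reads with the Astrocyte RNASeq workflow of their institution. The authors deposited FPKM, fragments scaled by the size of the library and of the transcript, for each gene. The TPM values deposited by the authors rescale these to a fixed sum. The authors also deposited a coverage signal, the read depth averaged over the bases of a gene. Coordinates equal those of GENCODE M21 on GRCm38 for 54037 of 54752 identifiers, and the submitters' processing notes name GRCm38. The aligner, its version and the use of strand are not given in the sources used here.

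FPKM was summed per gene identifier. Of 21921 protein-coding genes, 13609 exceeded an FPKM of 0.5 in at least 1 library. Their log2(FPKM + 1) values entered limma 3.58.1 (R 4.3.3), with a two-sided moderated test, an intensity trend in eBayes and p-values adjusted by Benjamini-Hochberg. The scripts were tested on simulated data. Median scaling used genes above 0.5 in all 4 libraries. The alternatives were TPM, quantile normalization, median scaling, no filter, a filter at FPKM 1 in 2 libraries, a pseudocount of 0.1, no trend, a block for the replicate number, omission of each library and, chosen after the data were seen, coverage divided by depth. With 2 pups per group, an exact test of 1 gene cannot reach the threshold, and calls rest on the spread shared across genes.

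The 8 genes and all lists were chosen with earlier results of these data known. Named were the 8 genes, Skiv2l, up to 5 called genes with the largest difference in each of the 4 signalling lists, ligands above 0.1 in any library, defining markers and the 5 genes closest to Irf7. Other called genes and Tbk1 were named after their values were seen. Overlap with other genes was counted on GENCODE M21 exons, and promoters came from RefSeq, which matched all 8 genes. Some genes that this rule covers are not reported here.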

Additional observations from a re-analysis of the deposited data

How the results depend on the processing

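No result of the 8 genes or of the lists reversed its called direction under any alternative run. Of 247 values of the named list genes and Skiv2l, 191 kept their call and 56 kept the direction but lost the call.

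With no filter, 475 of all genes were called higher and 927 lower, with 1 kinase or adaptor higher and 1 lower, 0 cofactors higher, 2 targets lower, 0 receptor genes lower and 1 of the 8 genes lower. With median scaling, 1766 of all genes were called lower, with 1 kinase or adaptor, 2 cofactors, 5 targets, 0 receptor genes and 1 of the 8 genes lower. With quantile normalization, 1917 of all genes were called lower, with 1 kinase or adaptor, 2 cofactors, 4 targets, 0 receptor genes and 1 of the 8 genes lower. With TPM, 1 cofactor was called higher and 3 of the 8 genes, Irf5 among them, lower. With coverage divided by depth, 1 cofactor was higher and 1 receptor gene lower. Without the trend, 1 cofactor was higher, 1 receptor gene lower and 1 of the 8 genes lower. The cause of these shifts was not tested.

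Leaving out each library in turn gave 497 to 1146 of all genes higher and 805 to 3135 lower, 0 to 3 kinases and adaptors higher and 1 to 2 lower, 1 to 2 receptor genes higher and 0 lower, 0 to 2 cofactors higher and 1 to 5 lower, 2 targets higher in each case and 0 to 7 lower, and 0 of the 8 genes higher and 1 to 3 lower. Where a group kept 1 library, that library was assumed to vary like the other group.

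The labels do not say whether the replicate numbers pair the pups, which are different animals. The deviations of same-numbered libraries from their group means had a Pearson correlation of -0.077 over 13609 genes. With the replicate block, 1 of the 8 genes, 6 targets and 1 receptor gene were called lower.

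The number of pups, 2 per genotype, limits every value.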

Other observations

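The chromosomal neighbourhood of Irf7 was looked at because Irf7 had one of the lowest differences of all genes. Within 100000 bases on either side of it, 9 other protein-coding genes passed the filter, of which 4 were called lower, 1 was called higher and 4 were not called by limma, where 25.4% of all tested genes were called lower and 8.99% higher. Their log2 differences ran from -0.69 to 0.31, against -3.10 for Irf7. Lmntd2, a lamin tail domain gene, had FPKM of 3.49 and 3.09 in the controls against 1.78 and 1.53 in the knockouts, a log2 difference of -0.69 (limma adjusted p = 0.0112). Lrrc56 was at -0.65 (limma adjusted p = 0.00883), Rassf7 at -0.55 (limma adjusted p = 0.00917) and the proto-oncogene Hras at -0.26 (limma adjusted p = 0.0441). Rnh1, a ribonuclease inhibitor, had FPKM of 140.0 and 140.0 in the controls against 174 and 173 in the knockouts, a log2 difference of 0.31 (limma adjusted p = 0.0253). Phrf1, Deaf1, Tmem80 and Eps8l2 were not called. These genes were named after their values were seen.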
